A study of Mus musculus with 6 samples.

Results

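The genes described here are feedback genes of ERK signalling: the phosphatase genes Dusp4, Dusp5 and Dusp6, the Sprouty genes Spry1, Spry2 and Spry4, the Sprouty-related genes Spred1 and Spred2, and the transcription factor gene Etv4. They were chosen by name, and all 9 were found among the 32285 genes of the count table. The 6 RNA-seq libraries came from cultured mouse spermatogonia (GS cells, germline stem cell cultures grown from testis). In the 3 p57 KO libraries the cells were p57 flox/flox with Cre, delivered as an adenovirus, and in the 3 control libraries they were p57 flox/flox. Floxed alleles of Cdkn1c, which encodes p57, an inhibitor of the cell cycle, were thus shared by both groups, and RNA was taken 2 days after infection. The sources used here do not say whether control cells were given a Cre-free virus, or which promoter drove Cre. The growth protocol gives donor mice of 3 days and the design text 10 days. The strain is BDF1 in the sample labels, and C57BL/6 and 129 in the design text. The labels do not say whether replicates were separate cultures, so p-values cover only the spread among these libraries, possibly technical.

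ERK is the last kinase of a cascade that runs from receptor tyrosine kinases through RAS, RAF and MEK. Active ERK switches on the genes of its own brakes: DUSP phosphatases remove phosphate from ERK, Sprouty proteins dampen signalling between receptor and RAF, and SPRED proteins bring the RAS inhibitor neurofibromin to the membrane. Etv4 encodes an ETS factor of the PEA3 family that FGF and GDNF signals induce. In spermatogonial cultures, GDNF and FGF are the growth factors that keep stem cells dividing, and the RNA of such feedback genes is often read as a record of ERK output.

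The stretches before the start of Dusp6, Spry2 and Dusp5 are shown because these 3 genes moved differently: Dusp6 fell most, Spry2 rose and Dusp5 did not pass the test. They are the 250 bases before the RefSeq start of each gene (GRCm38.p6, the assembly also called mm10), written 5′ to 3′ on the strand of the gene. RefSeq entries were matched for 6 of the 9 genes. Capitals mark matches to 5 motifs, searched on both strands and chosen after the sequences had been seen: the CArG box of serum response factor, the Capicua octamers TCAATGAA, TCAATGGA, TGAATGAA and TGAATGGA, the ETS core CGGAAG, the AP-1 site TGANTCA, and ACGTCA, a part of the cAMP response element.
Dusp6 (chr10:99262981-99263230, plus strand): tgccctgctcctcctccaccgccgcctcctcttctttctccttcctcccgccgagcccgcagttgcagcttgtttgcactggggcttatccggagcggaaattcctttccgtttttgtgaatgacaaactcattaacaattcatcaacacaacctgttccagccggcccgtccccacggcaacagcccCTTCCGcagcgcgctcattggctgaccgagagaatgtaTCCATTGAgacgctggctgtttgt
Spry2 (chr14:105896820-105897069, minus strand): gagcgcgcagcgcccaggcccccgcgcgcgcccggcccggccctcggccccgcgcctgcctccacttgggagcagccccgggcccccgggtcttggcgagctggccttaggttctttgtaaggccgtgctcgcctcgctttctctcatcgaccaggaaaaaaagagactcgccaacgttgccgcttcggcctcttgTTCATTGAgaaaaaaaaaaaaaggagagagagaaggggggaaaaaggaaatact
Dusp5 (chr19:53528895-53529144, plus strand): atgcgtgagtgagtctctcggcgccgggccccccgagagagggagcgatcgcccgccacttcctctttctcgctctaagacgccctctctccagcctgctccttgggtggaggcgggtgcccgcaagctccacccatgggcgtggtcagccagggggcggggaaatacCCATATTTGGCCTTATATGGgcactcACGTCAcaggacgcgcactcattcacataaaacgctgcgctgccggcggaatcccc

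The Dusp6 stretch holds a Capicua octamer 24 to 17 bases before the start and an ETS core 62 to 57 bases before it, both on the other strand. Capicua is a repressor that ERK removes from its targets. The Spry2 stretch also holds a Capicua octamer, on the other strand 54 to 47 bases before the start. The Dusp5 stretch holds 2 adjacent CArG boxes, 82 to 73 and 72 to 63 bases before the start, and ACGTCA 56 to 51 bases before it. Of 32851 stretches of 250 bases before RefSeq starts, 1.47% hold a CArG box, 3.19% a Capicua octamer, 13.6% the ETS core, 6.75% the AP-1 site and 6.47% ACGTCA. Spred1 and Spred2 each hold 1 ETS core, Spred2 also ACGTCA, and none of these letters was found in the stretch of Spry1. The RefSeq starts of Dusp5 and of these Spred genes differ from those of the GENCODE M21 annotation. The Dusp5 stretch ends at base 53529144, past the GENCODE start at 53529109, and its matches lie before that start. The Spred1 stretch ends at base 117121070, short of the GENCODE start at 117121374. The Spred2 stretch ends at base 19924441, past the GENCODE start at 19924375, and its matches lie within the annotated gene. A match describes the letters and is not evidence of binding.

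Total counts lay between 15662833 and 17893671 per library, and the 9 genes had 424 to 6613 counts each, which is a relative counting error of 4.86% to 1.23%. Levels are normalised read counts in CPM (library-size-scaled counts, after TMM). Genes were called changed at an adjusted p under 0.05 in edgeR's quasi-likelihood test over 14814 genes, and only such genes are said to have risen or fallen. Cdkn1c, which checks the labels, had 8.71, 9.44 and 8.51 CPM in p57 KO and 20.9, 21.4 and 19.9 CPM in control. Its level in p57 KO was 42.9% of that in control, and the groups did not overlap.

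Of the 9 feedback genes, 7 fell in p57 KO, Spry2 rose and Dusp5 did not pass. Over all tested genes, 11.6% fell and 11.6% rose (23.3% in either direction). The changes were small: the median log2 fold change of the 9 was -0.13, against 0.00 over all tested genes. Among the 7 that fell, p57 KO means were 80.1% (Dusp6) to 92.5% (Etv4) of the control mean. These directions hold for TMM scaling. Scaled instead to the summed counts of 10 germ cell markers, which moves the median of all genes by 0.19 (log2), 1 of the 9 fell (Dusp6; 1.26% of all genes fell) and 2 rose (Spry2 and Dusp5; 50.7% of all genes rose). On that scale Dusp4, Spry1, Spred1, Spred2 and Etv4 had log2 fold changes between 0.02 and 0.07. Less RNA per germ cell and fewer germ cells cannot be told apart in bulk libraries.

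**Figure D1:**
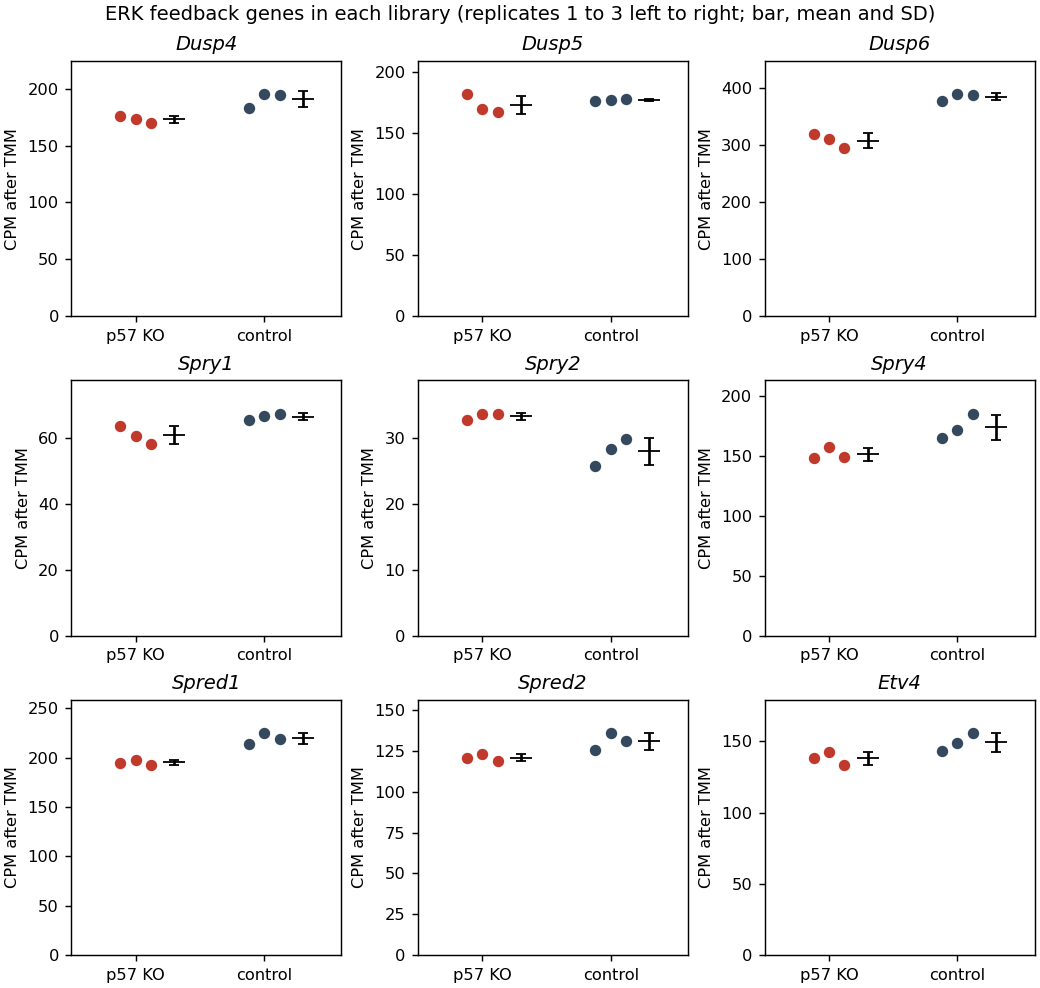
Normalised read counts (CPM after TMM, linear axis from 0) of the 9 feedback genes, with 1 point per library and the mean ± SD of 3 libraries beside each group. The p57 KO points lie below all control points for 7 genes, above them for Spry2, and around them for Dusp5.

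The phosphatase genes parted. Dusp6 encodes a cytoplasmic phosphatase that acts on ERK and is a standard readout of the pathway. It had 319.3, 310.3 and 294.7 CPM in p57 KO, against 377.8, 389.2 and 387.8 CPM in control. Every p57 KO library lay below every control library. The means were 308.1 ± 12.5 CPM in p57 KO and 384.9 ± 6.19 CPM in control (SD, n = 3 each), a log2 fold change of -0.32 ± 0.03 (SE; adjusted p = 1.46e-07 in edgeR). The value lay between -0.35 and -0.29 when each library was left out in turn, always past the threshold.

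Dusp4 encodes a nuclear phosphatase of MAP kinases. Its levels were 176.3, 173.6 and 170 CPM in p57 KO and 183.1, 195.1 and 194.8 CPM in control. The groups did not overlap, although p57 KO replicate 1 and control replicate 1 were close. This is a log2 fold change of -0.14 ± 0.03 (SE; adjusted p = 0.00286 in edgeR).

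Dusp5 encodes a nuclear phosphatase that binds and holds ERK. It had 181.9, 170.3 and 167.8 CPM in p57 KO, against 176.2, 177.3 and 178 CPM in control. The groups overlapped: p57 KO replicate 1 was above every control library and replicates 2 and 3 were below them. The SD was 7.54 CPM in p57 KO and 0.896 CPM in control. On the log2 scale the change was -0.03 ± 0.03 (SE; adjusted p = 0.518 in edgeR). Dusp5 overlaps AC137853.2 on the other strand, and as no source used here gives the strand setting of the counting, reads of the pair may be shared.

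The difference between phosphatase genes can be written as ratios within libraries, where scaling has no part. These ratios use the same counts as the fold changes and are not separate evidence. The ratio of Dusp5 to Dusp6 counts was 0.57, 0.549 and 0.569 in p57 KO and 0.466, 0.456 and 0.459 in control. On the log2 scale the ratio averaged -0.83 ± 0.03 in p57 KO and -1.12 ± 0.02 in control (SD, n = 3 each), a difference of 0.29. The ratio of Dusp4 to Dusp6 was 0.552, 0.559 and 0.577 in p57 KO and 0.485, 0.501 and 0.502 in control, a log2 difference of 0.18. Neither ratio overlapped between groups, and the share of other gene pairs without overlap was not computed. Each of the 5 ratios examined had an exact two-sided permutation p = 0.1 (also 0.1 adjusted over the 5), the smallest that 3 against 3 libraries allow.

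**Figure D2:**
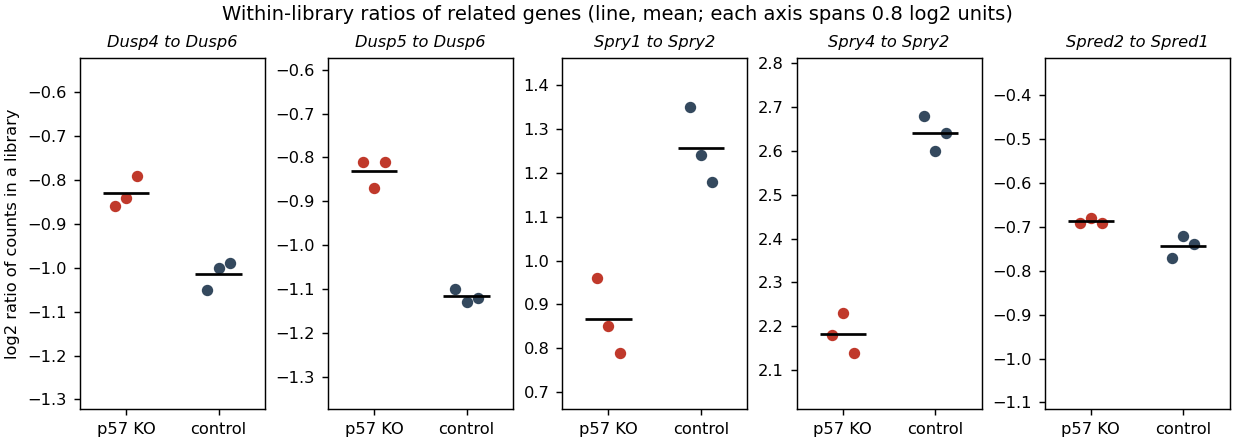
Log2 ratios of the counts of 2 related genes within a library, with 1 point per library and a line at the mean of each group; the axes span equal ranges. The groups are separate in all 5 panels, with the widest gap for Spry4 to Spry2 (-0.45) and the narrowest for Spred2 to Spred1 (0.05).

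Among the Sprouty genes, Spry4 and Spry1 fell while Spry2 rose. Spry4 encodes an inhibitor of signalling from FGF and other receptors. It had 147.7, 157.5 and 148.7 CPM in p57 KO and 164.5, 171.8 and 185 CPM in control. The highest p57 KO library stayed below the lowest control library. This is a log2 fold change of -0.20 ± 0.04 (SE; adjusted p = 0.00183 in edgeR). Spry4 overlaps the small RNA genes Gm27369 and Gm27804 on the other strand.

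Spry1 encodes a Sprouty protein known as a brake on RET signalling in the developing kidney. Its levels were 63.7, 60.8 and 58.4 CPM in p57 KO and 65.5, 66.9 and 67.5 CPM in control. The groups did not overlap, by a margin of about the distance between neighbouring replicates. The log2 fold change of -0.13 ± 0.04 (SE; adjusted p = 0.0389 in edgeR) was near the threshold. The call ended without control replicate 1 (adjusted p = 0.0578), 2 (0.0943) or 3 (0.121) and without p57 KO replicate 2 (0.0799) or 3 (0.174), at log2 fold changes from -0.14 to -0.10. Spry1 overlaps Gm42922 on the other strand.

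Spry2, whose protein inhibits the RAS-ERK pathway downstream of many receptors, was the member with the lowest counts. It had 32.7, 33.6 and 33.7 CPM in p57 KO, against 25.7, 28.4 and 29.8 CPM in control. Every p57 KO library was above every control library, and the p57 KO libraries were closer together. The means were 33.3 ± 0.563 CPM in p57 KO and 28 ± 2.07 CPM in control (SD, n = 3 each), a log2 fold change of 0.25 ± 0.06 (SE; adjusted p = 0.00627 in edgeR). Without control replicate 1, the lowest library, it was 0.19 (adjusted p = 0.0533).

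The same counts written as ratios showed the opposite course of Spry2. The counts of Spry4 were 4.52, 4.69 and 4.41 times those of Spry2 in p57 KO, and 6.39, 6.04 and 6.21 times in control. The counts of Spry1 were 1.95, 1.81 and 1.73 times those of Spry2 in p57 KO, and 2.54, 2.35 and 2.27 times in control. The log2 differences were -0.45 and -0.38, and neither ratio overlapped between groups.

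Both Spred genes fell, Spred1 a little more. Spred1 encodes the partner of neurofibromin that is mutated in Legius syndrome in humans. Its levels were 194.9, 197.6 and 192.5 CPM in p57 KO, against 214, 224.7 and 219.1 CPM in control. The groups were well apart compared with the SD of 2.58 CPM in p57 KO and 5.39 CPM in control. On the log2 scale the change was -0.17 ± 0.03 (SE; adjusted p = 0.00026 in edgeR).

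Spred2, a close relative of Spred1, had 120.9, 123.1 and 119.1 CPM in p57 KO and 125.8, 136.1 and 131.5 CPM in control. The groups did not overlap. This is a log2 fold change of -0.12 ± 0.04 (SE; adjusted p = 0.0206 in edgeR). It did not pass when control replicate 2 (-0.09, adjusted p = 0.117), control replicate 3 (-0.12, 0.0621) or p57 KO replicate 3 (-0.10, 0.058) was left out. The ratio of Spred2 to Spred1 counts was 0.62, 0.623 and 0.619 in p57 KO and 0.588, 0.606 and 0.6 in control, a log2 difference of 0.05.

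Etv4 had 138.3, 142.3 and 133.4 CPM in p57 KO and 142.9, 149.1 and 155.8 CPM in control. The groups did not overlap, and the highest p57 KO library was almost level with the lowest control library. On the log2 scale the change was -0.11 ± 0.04 (SE; adjusted p = 0.0261 in edgeR). The call ended when control replicate 2 (-0.12, adjusted p = 0.0695), control replicate 3 (-0.08, 0.158) or p57 KO replicate 3 (-0.09, 0.105) was left out. Etv5, its close relative and a target of GDNF in spermatogonia, fell by 0.20 on the log2 scale (adjusted p = 5.46e-05 in edgeR), with 540.1 ± 15 CPM in p57 KO and 621.2 ± 24.5 CPM in control (SD, n = 3 each). With the level of fibroblast markers as a covariate it had -0.12 (edgeR adjusted p = 0.239), and scaled to the germ cell markers -0.02. Etv1, of the same family but little expressed, went the other way, with a rise of 1.43 on the log2 scale (adjusted p = 0.00257 in edgeR). It had 3.94 ± 1.26 CPM in p57 KO and 1.46 ± 0.594 CPM in control (SD, n = 3 each). With the covariate Etv1 had 0.21 (edgeR adjusted p = 0.89).

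In all, 8 of the 9 genes had groups that did not overlap, 7 of them with p57 KO lower and 1 with p57 KO higher. Over all tested genes 39.2% did not overlap, 19.7% with p57 KO lower and 19.5% with p57 KO higher. When the change had to exceed a fold of 1.2, edgeR called 0 of the 9, with Dusp6 at adjusted p = 0.157. Over all genes, 2.79% rose and 0.371% fell by that test at an adjusted p under 0.05. At an unadjusted p under 0.05 it passed 1 member, and the share of all genes at that looser cut was not computed. DESeq2 called 2447 of the 14814 tested genes, against 3450 in the main edgeR fit. By DESeq2 4 of the 9 members fell (Dusp4, Dusp6, Spry4 and Spred1) and Spry2 rose. Spry1, Spred2 and Etv4 had DESeq2 adjusted p = 0.169, 0.0782 and 0.0808. The number that fell was also 4 when control replicate 2, control replicate 3 or p57 KO replicate 3 was left out.

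Relative to exon length, the order of the 9 genes was the same in both groups. Levels per kilobase of exon (GENCODE M21) were 98.4 ± 3.98 CPM per kilobase in p57 KO and 122.9 ± 1.98 in control for Dusp6, the highest (SD, n = 3 each). Dusp5, Dusp4, Etv4, Spry4, Spred1, Spred2 and Spry1 followed, and Spry2 was lowest with 16 ± 0.27 in p57 KO and 13.4 ± 0.991 in control. No neighbours in this order overlapped within a group over the 3 libraries. The closest were Dusp5 and Dusp4 in control, whose per-kilobase levels were 71.3 to 72 and 66.8 to 71.2. The lengths count every annotated exon, so levels of genes with unused exons are understated.

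**Figure D3:**
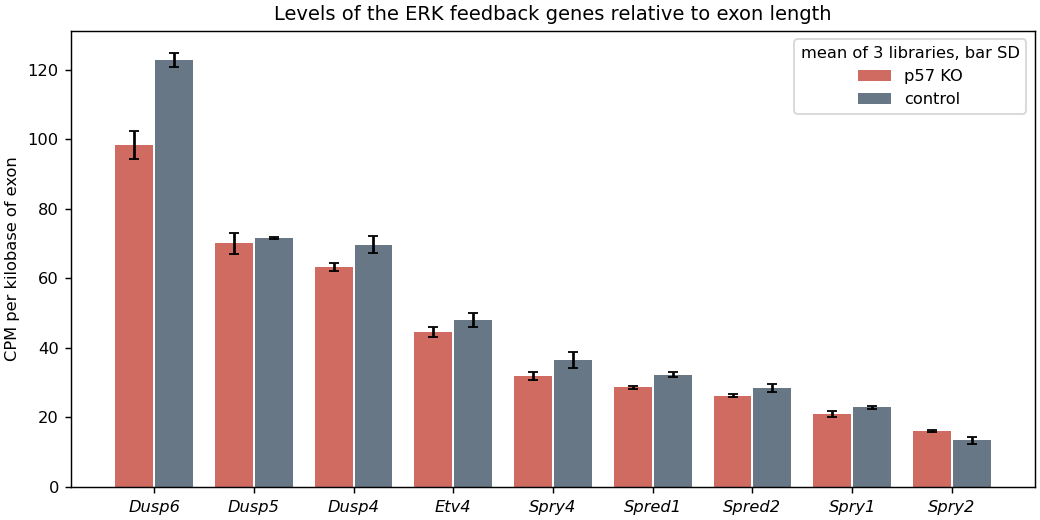
Mean level of each gene in CPM per kilobase of annotated exon (linear axis from 0; bars SD over 3 libraries), in the order of the control means. Dusp6 was highest and Spry2 lowest in both groups.

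Markers of other cells and of germ cells moved with the groups. All 23 fibroblast and feeder cell markers had a positive log2 fold change (median 1.44; 6 rose), none was at 0 counts in all libraries, and their summed level was 1705, 2304 and 3344 CPM in p57 KO and 1082, 1384 and 1116 CPM in control. Of the 10 germ cell markers 6 fell (median -0.22), and their summed level was 2392 to 2499 CPM in p57 KO and 2755 to 2824 CPM in control, 0.88 times the control level. The summed level of the 9 feedback genes was 1318 to 1376 CPM in p57 KO and 1475 to 1549 CPM in control, 0.89 times the control level. The germ cell markers did not move evenly: Dazl, which made up 39.1% of their counts, had -0.25, Zbtb16 -0.34 and Sall4 -0.31, while Ddx4 and Tdrd1 had -0.04 and Lin28a -0.01. In p57 KO replicate 3, where the fibroblast markers were highest, 7 of the 9 feedback genes had their lowest p57 KO level. That count rests on a single library, and the share of all genes with their lowest p57 KO level there was not computed. Summed Sertoli cell markers lay at 27.2 to 28.6 CPM in p57 KO and 27.8 to 31.4 CPM in control. Most of the Sertoli sum was Sox9 (means 18.1 CPM in p57 KO and 17.8 CPM in control) and Wt1 (8.08 and 10.2 CPM). Leydig cell markers summed to 3.14 to 3.29 CPM in p57 KO and 2.94 to 3.88 CPM in control, with Hsd3b1 at 0 counts. Nearly all of the Leydig sum was Star (means 3.15 CPM in p57 KO and 3.41 CPM in control). Macrophage markers summed to 18 to 21.9 CPM in p57 KO and 13.1 to 14.1 CPM in control, and endothelial markers to 74.5 to 77.9 CPM in p57 KO and 82.2 to 86.1 CPM in control. Most of the macrophage sum was Cd68 (means 16.4 CPM in p57 KO and 12.4 CPM in control). Lyz2 also rose from a low level, while Ptprc, Adgre1 and Csf1r had at most 0.353 CPM in any library and overlapped between groups. Most of the endothelial sum was Kdr (means 56.1 CPM in p57 KO and 63.9 CPM in control). Kdr and Cdh5 fell, Tek rose and Pecam1 had -0.02.

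With the mean log2 level of the fibroblast markers as a covariate, Dusp6 fell with -0.24 (SE 0.05, edgeR adjusted p = 0.00627), and no other member passed the threshold. By the same threshold 1.48% of all genes rose and 0.972% fell in that edgeR fit. At an unadjusted p under 0.05, 5 members were lower, and the share of all genes at that looser cut was not computed. The values of Spry4 (-0.20, SE 0.07), Spred1 (-0.19, SE 0.06), Spred2 (-0.15, SE 0.07) and Dusp4 (-0.13, SE 0.06) stayed near those without the covariate, at larger errors. Spry1 had -0.03 (SE 0.09), Etv4 -0.07 (SE 0.07), Spry2 0.19 (SE 0.12) and Dusp5 0.07 (SE 0.06). The covariate and the group moved together: the score was 4.690, 5.297 and 5.816 in p57 KO and 3.814, 4.362 and 3.843 in control. The part of the marker differences in the changes of the feedback genes was not tested. It cannot be told apart from the group in these libraries.

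**Figure D4:**
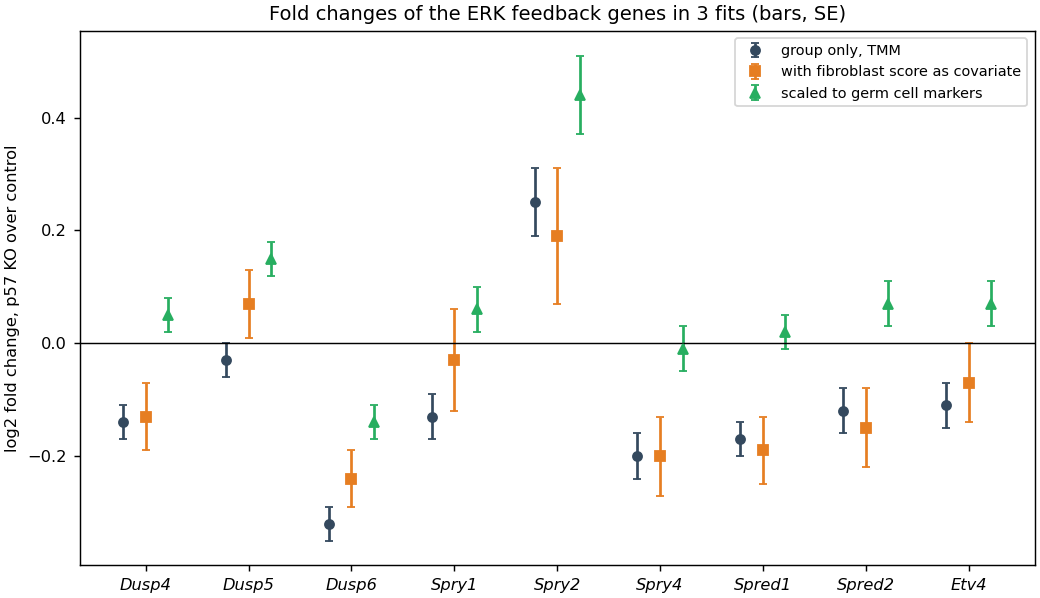
Log2 fold change of p57 KO over control (bars, SE) for the 9 genes, with the group as the only term, with the fibroblast score as a covariate, and with libraries scaled to the germ cell markers. Dusp6 is below 0 and Spry2 above 0 in all 3 fits; with the germ cell scale the others lie between -0.01 and 0.15.

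The rest of the ERK pathway was read from lists written by role with earlier results of these data known. Of 9 other DUSP genes for MAP kinases, 3 rose and 1 fell (median 0.15), and 1 rose without control replicate 1. Dusp7, a cytoplasmic relative of Dusp6, fell with a log2 fold change of -0.29 ± 0.04 (SE; adjusted p = 4.45e-06 in edgeR). It had 116.7, 115.8 and 110.6 CPM in p57 KO, against 135, 143.6 and 141.1 CPM in control. Dusp8, a phosphatase of stress kinases that was little expressed, rose with 1.40 (SE 0.19, adjusted p = 1.32e-05), with 5.49, 5.6 and 5.27 CPM in p57 KO and 1.64, 1.94 and 2.62 CPM in control. Dusp7 and Dusp8 also passed with the fibroblast score as a covariate, with -0.26 (edgeR adjusted p = 0.0247) and 1.49 (0.00532), while Dusp3 and Dusp1 had 0.08 (0.886) and 0.31 (0.582). Scaled to the germ cell markers, Dusp7 had -0.10. Dusp3 had 0.28 (edgeR adjusted p = 0.0102; 0.0808 without control replicate 1). Dusp1, an immediate early phosphatase gene, had 0.55 (0.0475), and did not pass without control replicate 1 (adjusted p = 0.157), 2 (0.116) or 3 (0.0635) or without p57 KO replicate 1 (0.0706) or 2 (0.0678). Dusp9, a relative of Dusp6, had 0.05 (0.205). Dusp8, Dusp3 and Dusp1 overlap genes on the other strand (Gm32786, Cfap97d1 and Gm20659, Ergic1 and Gm8225).

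Of 7 other tested inhibitors of receptor signalling, Cblb, a ubiquitin ligase, fell with -0.18 (SE 0.04, edgeR adjusted p = 0.0011), and Il17rd, a membrane inhibitor of FGF signalling, with -0.10 (SE 0.03, 0.0451). Il17rd did not pass without control replicate 2 (0.0996), control replicate 3 (0.198) or p57 KO replicate 3 (0.207). Spry3 was listed at 0 counts in every library, Spred3 had 0.22 (adjusted p = 0.16), and Errfi1, an inhibitor of the EGF receptor, had 0.72 (0.061). The 7 had a median of 0.07. Scaled to the germ cell markers, 6 of them rose, on a scale where 50.7% of all tested genes rose. With the fibroblast score Cblb had -0.18 (edgeR adjusted p = 0.204) and Il17rd 0.00 (0.99).

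Upstream of ERK, 5 of 12 receptor genes fell and 2 rose (median -0.11), where 11.6% of all tested genes fell and 11.6% rose. The 2 that rose were little expressed: Egfr with 0.87 (SE 0.20, edgeR adjusted p = 0.00366) and Kit with 0.55 (SE 0.14, 0.00633). Egfr had means of 5.55 CPM in p57 KO and 3.06 CPM in control, and Kit 8.16 and 5.59 CPM. Ret, the GDNF receptor kinase, fell with -0.34 (SE 0.04, edgeR adjusted p = 0.000288), with 443.2 ± 28.7 CPM in p57 KO and 560.6 ± 17.8 CPM in control (SD, n = 3 each). Its co-receptor gene Gfra1 had -0.15 (adjusted p = 0.000585), Igf1r, the receptor of insulin-like growth factor, -0.30 (4.9e-07), and Erbb3, of the EGF receptor family, -0.20 (5.45e-05). Fgfr1, an FGF receptor gene, had -0.07 (0.0828). In the covariate fit Igf1r had -0.20 (edgeR adjusted p = 0.039) and passed, and Ret (-0.15, 0.0964), Gfra1 (-0.09, 0.512) and Erbb3 (-0.14, 0.21) did not. Egfr (0.04, 0.98) and Kit (0.21, 0.795) did not pass in that edgeR fit either. With the germ cell scale 2 receptor genes fell and 4 rose, where 1.26% of all tested genes fell and 50.7% rose. On that scale Ret had -0.15 and Gfra1 0.03.

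Of 14 kinases and scaffolds of the cascade, 5 fell and 1 rose (median -0.08); 3 fell without control replicate 1 or 3 or without p57 KO replicate 2 or 3. Mapk3, the gene of an ERK kinase, had -0.18 (SE 0.04, edgeR adjusted p = 0.00451), and Map2k1, of a MEK kinase, -0.13 (SE 0.03, 0.00696). Braf had -0.16 (SE 0.05, 0.0193), and did not pass without control replicate 1 (0.0808) or 3 (0.0914) or p57 KO replicate 2 (0.0543) or 3 (0.0524). In the covariate fit Mapk3 had -0.25 (edgeR adjusted p = 0.0956), Map2k1 -0.19 (0.14) and Braf -0.06 (0.88). With the germ cell scale Mapk3, Map2k1 and Braf had 0.01, 0.06 and 0.02; 8 of the 14 rose on that scale, near the 50.7% of all tested genes.

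The pathway held both directions further along too. Of 6 Capicua and ETS repressor genes 2 fell: Erf, of a repressor that ERK inactivates, with -0.33 (SE 0.04, edgeR adjusted p = 7.05e-07), and Etv3 with -0.26 (SE 0.07, 0.00868; 0.0631 without p57 KO replicate 2). The covariate fit gave Erf -0.25 (edgeR adjusted p = 0.0312) and Etv3 -0.42 (0.0575). With the germ cell scale 1 of the 6 fell and 4 rose, where 1.26% of all tested genes fell and 50.7% rose. Of 16 ERK-induced genes outside the feedback genes 5 rose and 3 fell (median 0.21), and 5 fell without control replicate 2. Fosl1, an AP-1 subunit gene, rose with 0.86 (SE 0.10, edgeR adjusted p = 1.51e-06), Ier3, an immediate early gene, with 0.52 (SE 0.06, 1.81e-06), and Myc with 1.58 (SE 0.19, 4.45e-06). Myc was low, at 5.43 ± 0.863 CPM in p57 KO and 1.82 ± 0.27 CPM in control (SD, n = 3 each). With the fibroblast score these 3 genes had 0.53, 0.37 and 1.13, at edgeR adjusted p = 0.0663, 0.054 and 0.0566. In that fit 0 of the 16 rose and 1 fell, where 1.48% of all genes rose and 0.972% fell. The gene that fell was Egr3, with -0.54 (edgeR adjusted p = 0.0186), against -0.47 without the covariate. In the covariate fit Etv1 had 0.21 (0.89), Fos 0.39 (0.425) and Egr2 -0.06 (0.82), none of them called. Without the covariate Etv1 (1.43, edgeR adjusted p = 0.00257) and Fos (0.50, 0.0278) rose and Egr2 (-0.26, 0.000298) fell. Fosl1 overlaps Ccdc85b on the other strand. Of the other pathway genes named, Cblb, Errfi1, Egfr, Fgfr1, Gfra1, Map2k1, Braf, Spred3, Rras2, Frs3 and Rasa2 also overlap genes on the other strand.

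**Figure D5:**
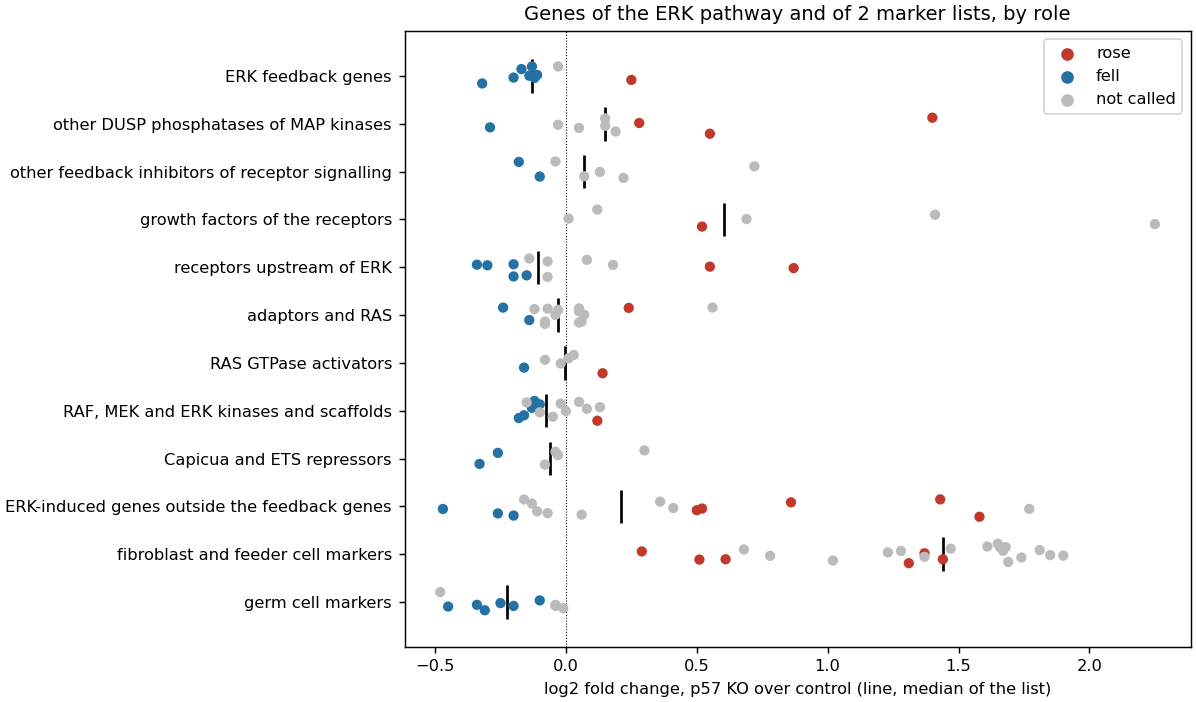
Log2 fold change of p57 KO over control for each tested gene (points), in rows by role, with called genes coloured and a line at the median of each list; the vertical spread within a row has no meaning. The feedback genes have a median of -0.13, the germ cell markers of -0.22 and the fibroblast markers of 1.44.

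Of 15 adaptor and RAS genes 3 were called, against 23.3% of all tested genes: 2 fell, Rras2 with -0.24 (edgeR adjusted p = 0.0107; 0.055 without control replicate 1) and Frs2 with -0.14 (0.0177; 0.123, 0.0507 and 0.0941 without control replicate 2, control replicate 3 and p57 KO replicate 2). In the same list Frs3 rose with 0.24 (0.0452; 0.212, 0.0787, 0.146 and 0.0882 without control replicates 2 and 3 and p57 KO replicates 2 and 3). Of 6 RAS GTPase activators Rasa2 fell with -0.16 (edgeR adjusted p = 0.00393) and Rasa3 rose with 0.14 (0.00614; 0.0606 without control replicate 2). Of 6 tested growth factor genes Hbegf, which encodes an EGF receptor ligand, rose with 0.52 (SE 0.09, edgeR adjusted p = 0.000336). In the covariate fit these genes had edgeR adjusted p between 0.231 (Frs2, -0.19) and 0.846 (Hbegf, 0.10). Rises numbered 4 in the growth factor list without p57 KO replicate 1 and 2 when the library left out was control replicate 2 or either of p57 KO replicates 2 and 3.

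For each feedback gene the gene with the most similar profile over the 6 libraries was looked for among 11973 named genes of at least 2 CPM, by Pearson correlation of log2 CPM. These were Mtrex for Dusp6, Tmem87a for Dusp4, Ssx2ip for Dusp5, Zbtb18 for Spry1, Zfp706 for Spry2, Pex19 for Spry4, Matr3 for Spred1, Prmt3 for Spred2 and Nkrf for Etv4. The coefficient was 0.993 for Prmt3 and 0.998 or 0.999 for the others. The points share 6 libraries in 2 groups, and the measure takes no account of the size of a change: Dusp6 had a log2 fold change of -0.32 and Mtrex -0.11, Spred1 -0.17 and Matr3 -0.38, while Spry1 and Zbtb18 both had -0.13 and Dusp5 and Ssx2ip both -0.03.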

How the data were processed

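RNA of 3 p57 KO and 3 control libraries was sequenced as reads of 76 bp. The authors deposited raw counts of reads per gene, not normalized. Tools listed in the submitters' processing notes are HTSeq 2.0.2, HISAT2 2.2.1, cutadapt 3.4 and bcl2fastq 2.20, with mm10 as the build. Not given in the sources used here are the annotation, the strand setting and the handling of reads with several matches.

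Genes with low counts were removed with filterByExpr of edgeR 4.0.16, which left 14814 of 32285 genes, all 9 members among them. TMM scaling and the quasi-likelihood F-test of edgeR followed (R 4.3.3, robust dispersions, group only), with Benjamini-Hochberg adjustment over the tested genes. The test was tried on simulated counts before use. Fold changes are log2, p57 KO over control. The alternatives were RLE scaling, DESeq2 1.42.0, limma-voom (limma 3.58.1), other filters, a replicate block, each library left out, a fold of 1.2 and the fibroblast score; the germ cell scale was added after the data were seen. Replicates of a group differed by more than sampling noise (chi-square per degree of freedom 1.69 to 5.97).

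The members, lists and alternatives were chosen with earlier results of these data known. The genes named are the 9 members, Cdkn1c, up to 4 called genes of smallest p in each list, and for each member the gene of most similar profile. A kinase gene that this rule names is not reported here. Etv5, Etv1, Fos, Egr2, Egr3, Egfr, Kit, Fgfr1, Dusp9, Spred3, Spry3, Errfi1 and single markers were named after their values were seen. Positions and exon lengths are from GENCODE M21, in which 32235 gene identifiers were found. Sequences are from RefSeq (GRCm38.p6).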

Additional observations from a re-analysis of the deposited data

How the results depend on the processing

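Dusp6 kept its direction and call in 14 of 15 alternative fits, the exception being the test against a fold of 1.2. RLE scaling, limma-voom, a low-count filter left out or set to 1 CPM in 3 libraries, and the replicate block left 7 members lower and 1 higher by the same threshold. The genes called over the whole table numbered 3450, and 2358 to 4029 when 1 library was left out, with 4 to 7 members lower and 0 to 1 higher. The 0 is the fit without control replicate 1, where Spry2 passed at an unadjusted p under 0.05. DESeq2 called 2447 genes, with 4 members lower and 1 higher. Against a fold of 1.2, edgeR called 469 genes, with 0 members lower and 0 higher. With the fibroblast score as a covariate 363 genes passed, with 1 member lower and 0 higher, and Dusp5 turned to 0.07. Scaled to the germ cell markers, 7696 genes passed, with 1 member lower and 2 higher. Dusp4 then had 0.05, Dusp5 0.15, Spry1 0.06, Spred1 0.02, Spred2 0.07 and Etv4 0.07, a scale that moves the median of all genes by 0.19. Relative to that shift the 9 genes had -0.32 (Dusp6) to 0.26 (Spry2). The cause of the changes was not tested.

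The replicate number as a block gave 3706 called genes. Samples with equal numbers did not deviate together in every pair (correlations across genes 0.19, 0.02 and -0.10), so the numbers were not taken as pairs. Of 135 alternative values of the members' log2 fold changes, 97 kept direction and side of the threshold, 31 fell short of it and 7 changed sign. The within-library ratio differences moved little when 1 library was left out: 0.16 to 0.20 for Dusp4 to Dusp6, 0.28 to 0.31 for Dusp5 to Dusp6, -0.43 to -0.34 for Spry1 to Spry2, -0.48 to -0.43 for Spry4 to Spry2, and 0.04 to 0.06 for Spred2 to Spred1. Spry2, with the fewest counts of the members, had the widest error.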
